A study of Rattus norvegicus with 13 samples.

Results

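Pck1, Fbp1, Ass1, Asl and Gatm encode enzymes of glucose formation and of arginine and creatine synthesis in the proximal tubule of the kidney. Every probe set whose single platform gene symbol was one of these 5 genes was taken, which gave 5 of the 10411 genes with such a probe set and 6 probe sets of 15923, with 2 for Asl and 1 for each other gene. They were measured on 13 one-colour arrays of glomeruli from untreated Lewis-Hsd rats aged 18 weeks on a regular diet. Other text for the samples speaks of embryos and of anti-Thy1.1 rats, which does not match these fields. In the samples titled LCM 20 (LCM20, n = 4) and LCM 800 (LCM800, n = 5), glomeruli were cut from sections of frozen kidney by laser capture microdissection, and the RNA went through 2 rounds of amplification. The protocol of both groups names about 800 glomerular cross-sections of 10 µm, and the labels do not explain the number 20. In the samples titled iron (sieved, n = 4), the RNA was not amplified and came from the opposite kidneys, which were perfused with iron oxide so that glomeruli could be collected by magnet and sieve. Isolation and amplification therefore changed together between the microdissected and the sieved samples and cannot be told apart. The samples are called biological replicates, but the labels do not say which rat each came from.

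The proximal tubule, which takes back most of the filtrate, is the site of glucose formation in the kidney. Pck1 encodes cytosolic phosphoenolpyruvate carboxykinase, which turns oxaloacetate into phosphoenolpyruvate and is controlled mainly through its transcription, and Fbp1 encodes fructose-1,6-bisphosphatase, a later irreversible step. The same tubule makes arginine from citrulline through argininosuccinate synthase (Ass1) and argininosuccinate lyase (Asl). Gatm encodes glycine amidinotransferase, which uses arginine for the first step of creatine synthesis. The glomerulus itself, the capillary tuft that filters the blood, is built of podocytes, endothelium and mesangium.

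Proximal tubule markers separated the microdissected from the sieved arrays. All 15 tested markers, among them the apical transporters and receptors Slc34a1, Slc5a2, Lrp2 and Cubn, were lower in both LCM20 and LCM800 (limma, Benjamini-Hochberg adjusted p under 0.05), and none was listed at 0. Their summed signal ran from 9180 to 20482 intensity units in LCM20, from 12854 to 22146 in LCM800 and from 59169 to 127823 in sieved arrays. The summed signal of 6 podocyte markers ran from 25828 to 40672 in LCM20, from 29159 to 40667 in LCM800 and from 15677 to 37733 in sieved arrays. Without Synpo, an actin-associated podocyte protein, the other 5 summed to 11329 to 17729 in LCM20, 10982 to 15019 in LCM800 and 10623 to 27289 in sieved arrays. Of the 6 tested podocyte markers 2 rose and 1 fell in LCM20, and 2 rose and 2 fell in LCM800. Of 6 glomerular endothelial markers 4 rose in LCM20 and 3 in LCM800, and of 6 mesangial markers 1 rose in LCM20 and 3 in LCM800. Of 10 markers of the loop, distal tubule and collecting duct 8 fell in LCM20, and 6 fell and 1 rose in LCM800. Of 7 leukocyte markers 3 rose and 1 fell in LCM20, and 4 rose and 1 fell in LCM800. Over all 8081 tested genes, 18.5% fell and 27% rose in LCM20, and 19.8% fell and 32.3% rose in LCM800. The rising share was 33.3% for podocyte markers in both groups and 16.7% for mesangial markers in LCM20, near or under these shares. Sieved replicate 3 had the lowest tubule sum and the highest podocyte sum of its group, and it correlated with the other sieved arrays at 0.87 to 0.90 over tested probe sets, against up to 0.98 among the others. The 3′ probe set of the β-actin control was brighter than its 5′ probe set on the log2 scale by 1.5 to 2.51 in LCM20, by 2.05 to 4.67 in LCM800 and by 0.53 to 0.58 in sieved arrays, and LCM800 replicates 1, 2 and 3 held the values from 3.25 upwards. The same difference for GAPDH was −0.28 to 3.26 in LCM20, 0.83 to 2.24 in LCM800 and 0.36 to 0.67 in sieved arrays, and for hexokinase it was 0.27 to 3.37 in LCM20, −0.72 to 3.55 in LCM800 and 1.35 to 2.75 in sieved arrays. For both of these controls LCM800 replicate 4 had the highest value of its group. In these bulk samples fewer cells of a type and less RNA per cell cannot be told apart. The part of tubule content, podocyte content and RNA quality in the results below was not tested.

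Of the 6 probe sets, 5 passed the filter on low values and were tested among 11106. Against sieved, 4 of the 5 fell and 1 rose in LCM800, where 20.1% of all tested probe sets fell and 31.8% rose. In LCM20, 4 of the 5 fell and none rose, where 19.2% of all tested probe sets fell and 26.2% rose. Of all 6 probe sets, 5 in LCM20 and 4 in LCM800 lay under the sieved range on every array, and Pck1 lay above it in both groups. Both counts under the range include the untested Asl probe set 1368916_at, while the shares that follow cover tested probe sets only. Over the tested probe sets, 18.2% lay under and 25.6% above the sieved range in LCM20, and 16.1% under and 26.7% above it in LCM800. The median change of the 5 was −2.14 in LCM20 and −2.27 in LCM800 on the scale of log2(signal + 65.3), where 65.3 is the 20th percentile of all signals, beside medians of 0.17 and 0.22 over all tested probe sets. Both comparisons use the same sieved arrays. Pck1 was the one probe set that did not fall, and Fbp1, Ass1, Gatm and the tested Asl probe set fell in both.

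**Figure D1:**
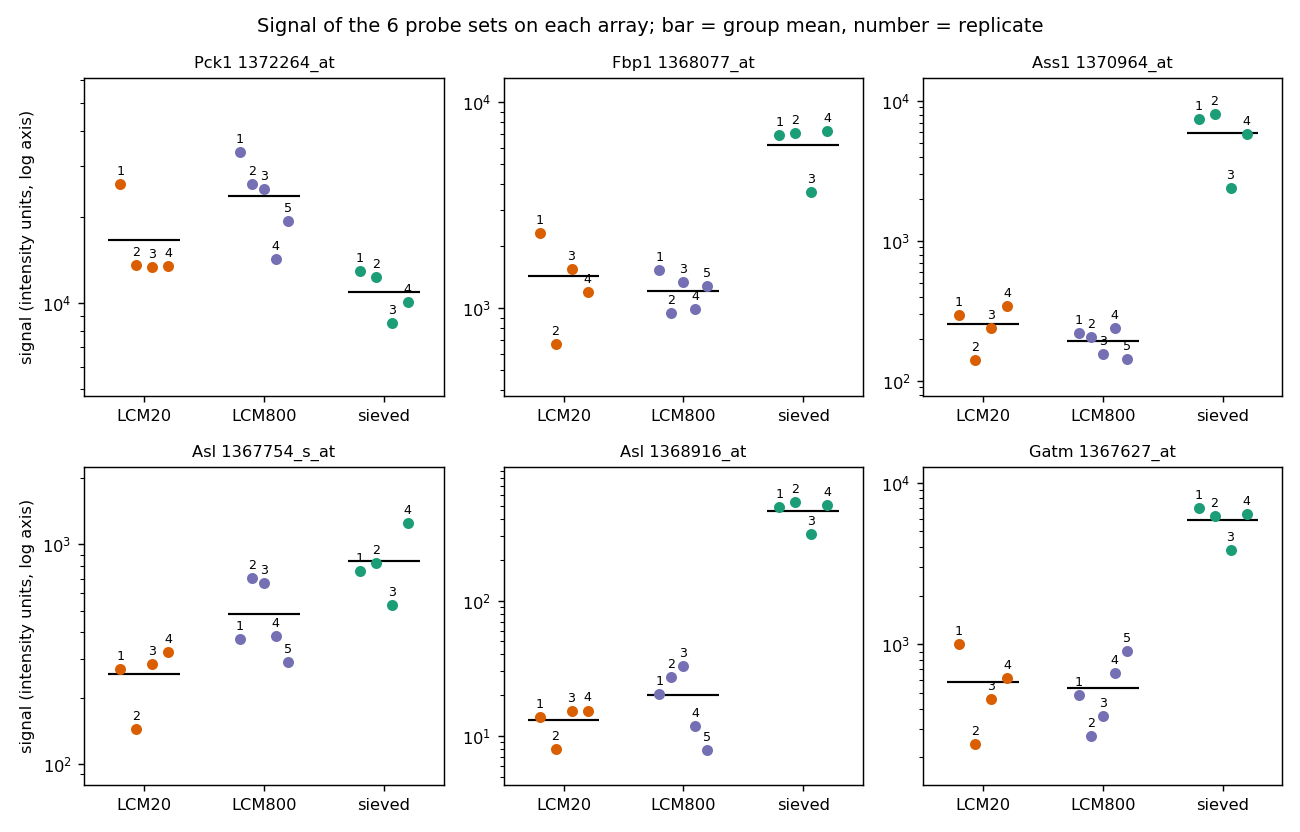
Signal (intensity units, log axis) of the 6 probe sets on each of the 13 arrays, grouped as LCM20, LCM800 and sieved, with a bar at the group mean and the replicate number at each point. Pck1 lies higher on every microdissected array than on any sieved array, whereas Fbp1, Ass1, Gatm and the Asl probe set 1368916_at lie lower on every microdissected array.

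Pck1 was higher in the microdissected arrays. Its probe set 1372264_at read 26060, 13582, 13370.5 and 13466 intensity units in LCM20 replicates 1 to 4, 33771, 26013, 25018, 14194 and 19404 in LCM800 replicates 1 to 5, and 12934, 12310, 8513 and 10070 in sieved replicates 1 to 4. Every microdissected array was above every sieved array, and LCM20 and LCM800 overlapped. The mean signal was 16620 ± 6294 in LCM20 (SD, n = 4), 23680 ± 7371 in LCM800 (SD, n = 5) and 10957 ± 2041 in sieved arrays (SD, n = 4). Pck1 rose in LCM800 by 1.07 ± 0.29 on the log2 scale (SE of the fit; limma adjusted p = 0.00559), which is 2.16 times on the mean signal. In LCM20 its difference from sieved was 0.55 with a 95% interval of −0.08 to 1.19, which did not pass (limma adjusted p = 0.143), although the ranges did not overlap.

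With 1 array left out, the Pck1 difference ran from 0.32 to 0.64 in LCM20 and from 0.92 to 1.24 in LCM800. Without LCM800 replicates 1, 2 and 3 together, the LCM800 arrays with the largest 3′ excess of β-actin but not of GAPDH or hexokinase, it was 0.62 and did not pass (limma adjusted p = 0.125). The LCM20 difference was 0.32 without LCM20 replicate 1, and after quantile normalization it was 0.55 and passed (limma adjusted p = 0.0333). Without sieved replicate 3 the differences were 0.44 in LCM20 and 0.95 in LCM800. The Pck1 signal was 50.3% to 97.5% of the highest signal of its array in LCM20, 69.8% to 100% in LCM800 and 47.7% to 58.4% in sieved arrays. The deposited values carry no saturation flags, so saturation of this probe set was not tested.

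The Pck1 gene lies at chr3:182348572-182354521 on GRCr8, the build of the RefSeq gene table, while the build behind the array is not given in the sources used here. Its promoter is shown because Pck1 is known to answer to cAMP and to the tubule factor HNF1, and the promoters of Ass1 and Gatm, also on chromosome 3, are shown because these genes had the largest falls of the tested members. Each line gives the 250 bases before the RefSeq start on the gene's strand, at chr3:182348322-182348571 (plus strand) for Pck1, chr3:35149480-35149729 (plus strand) for Ass1 and chr3:130129094-130129343 (minus strand) for Gatm. Capitals mark the core ACGTCA of the cAMP response element and the HNF1 core ATTAAC, searched on both strands.
Pck1: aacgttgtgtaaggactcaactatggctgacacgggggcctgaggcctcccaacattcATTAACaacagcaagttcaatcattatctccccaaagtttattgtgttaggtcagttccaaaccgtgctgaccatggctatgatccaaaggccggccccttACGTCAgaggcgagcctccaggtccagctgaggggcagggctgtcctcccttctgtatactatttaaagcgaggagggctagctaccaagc
Ass1: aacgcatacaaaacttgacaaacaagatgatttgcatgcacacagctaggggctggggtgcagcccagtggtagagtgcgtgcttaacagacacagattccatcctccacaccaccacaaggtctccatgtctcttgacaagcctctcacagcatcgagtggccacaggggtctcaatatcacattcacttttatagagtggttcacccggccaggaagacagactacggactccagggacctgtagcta
Gatm: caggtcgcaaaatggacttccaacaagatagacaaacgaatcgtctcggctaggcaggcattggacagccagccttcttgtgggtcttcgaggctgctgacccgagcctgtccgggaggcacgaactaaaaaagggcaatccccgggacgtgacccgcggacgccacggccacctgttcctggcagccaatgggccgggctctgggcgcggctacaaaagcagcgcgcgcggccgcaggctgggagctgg
The ACGTCA match lies 91 bases and the ATTAAC match 192 bases before the Pck1 start, and neither motif is in this window of the other 4 genes. Of 33465 rat promoters of the same length, 6.95% hold ACGTCA or its reverse TGACGT, and 6.45% hold ATTAAC or its reverse GTTAAT. The sequence CCAAT or its reverse is in the windows of Fbp1 and Gatm and in 34.0% of all promoters. The sequence GGGCGG or its reverse is in the windows of Fbp1 and Asl and in 30.5% of all. The matches describe these letters and were not tied to the array values. The starts used for Ass1, Gatm, Fbp1 and Asl lie inside the outermost span of each gene.

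Fbp1, the later step of the same pathway, moved the other way. Its probe set 1368077_at read 2315, 674, 1554 and 1193 intensity units in LCM20, 1540, 948, 1337, 987 and 1278 in LCM800, and 6955, 7056, 3664 and 7242 in sieved arrays. No microdissected array reached the sieved range, within which replicate 3 was lowest. Mean signals were 1434 ± 690 in LCM20 (SD, n = 4), 1218 ± 249 in LCM800 (SD, n = 5) and 6229 ± 1714 in sieved arrays (SD, n = 4). Fbp1 fell by 2.14 in LCM20 (SE 0.33; limma adjusted p = 0.000105) and fell by 2.27 in LCM800 (SE 0.31; limma adjusted p = 2.99e-05). The gene lies at chr17:2212941-2235749.

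**Figure D2:**
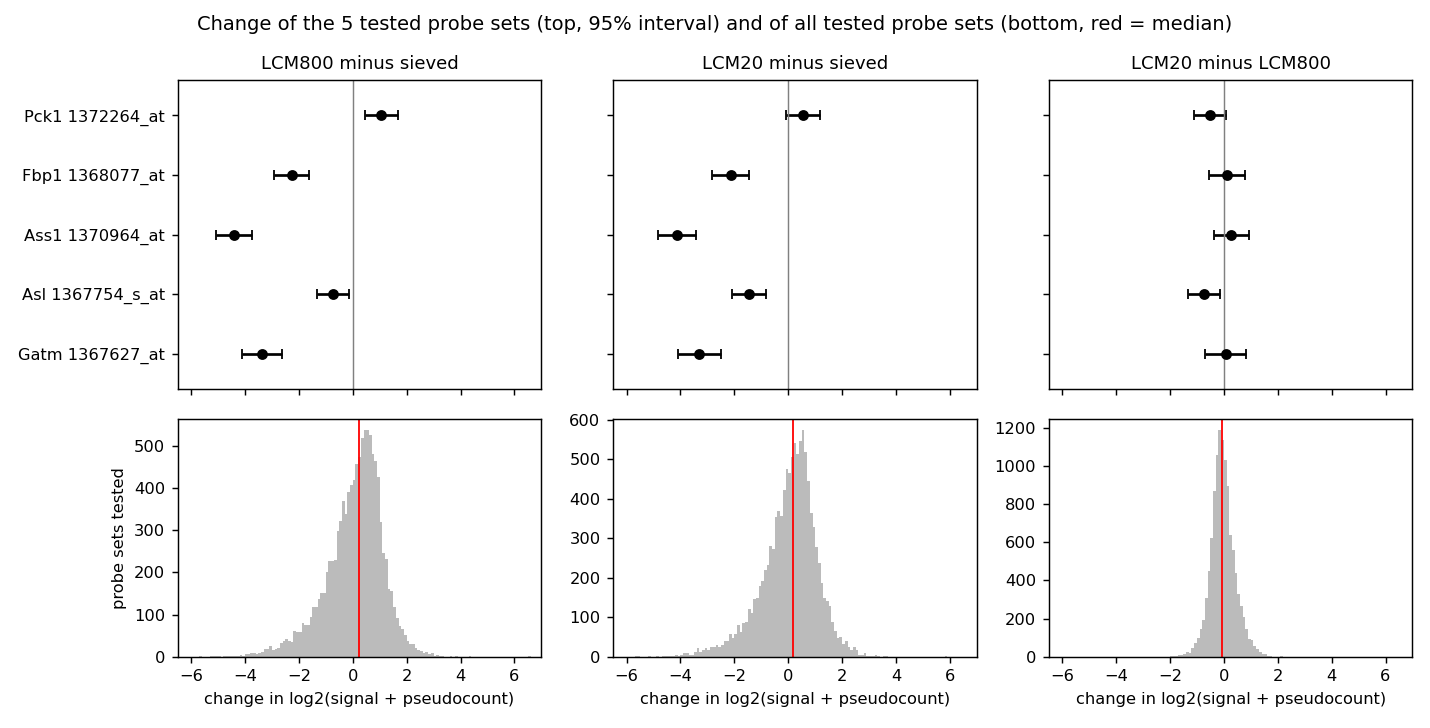
Top, change in log2(signal + pseudocount) of the 5 tested probe sets with 95% intervals in each comparison, and bottom, the number of all 11106 tested probe sets at each change, with the median in red. Against sieved, Pck1 lies above 0 at 1.07 in LCM800 and 0.55 in LCM20 while the other 4 lie below 0, and between LCM20 and LCM800 the intervals of all but Asl include 0.

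Ass1, which joins citrulline and aspartate, had the largest fall among the 5 tested probe sets on the log2(signal + 65.3) scale. Its probe set 1370964_at read 296, 140, 239 and 343 intensity units in LCM20, 219, 207, 156, 239 and 144 in LCM800, and 7392, 8057, 2373 and 5803 in sieved arrays. The highest microdissected array stayed far under the lowest sieved array, again replicate 3. Mean signals were 255 ± 87.3 in LCM20 (SD, n = 4), 193 ± 41.3 in LCM800 (SD, n = 5) and 5906 ± 2538 in sieved arrays (SD, n = 4), so sieved was 23.2 times LCM20 and 30.6 times LCM800. Ass1 fell by 4.13 in LCM20 (SE 0.33; limma adjusted p = 4.51e-07) and fell by 4.41 in LCM800 (SE 0.31; limma adjusted p = 9.30e-08). Counted from the lowest change among 11106 probe sets, it took place 18 in LCM20 and place 13 in LCM800. The gene lies at chr3:35144765-35194632.

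Asl, the lyase that releases arginine, had 2 probe sets that differed in size. Probe set 1367754_s_at read 273, 145, 286 and 323 intensity units in LCM20, 373, 707, 666, 383 and 293 in LCM800, and 760, 821, 528 and 1248 in sieved arrays. LCM20 lay under the sieved range, while LCM800 replicates 2 and 3 overlapped with sieved replicate 3. This probe set fell by 1.47 in LCM20 (SE 0.30; limma adjusted p = 0.000977) and fell by 0.73 in LCM800 (SE 0.28; limma adjusted p = 0.0405). The LCM800 call ended under 11 of 25 alternative settings, such as without sieved replicate 4 (−0.53) or without LCM800 replicates 4 and 5 (−0.47). Among the 11, the replicate block and leaving out LCM800 replicate 5 gave the same difference of −0.59.

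The other Asl probe set, 1368916_at, was under the filter on mean level and was not tested. It read 13.7, 7.97, 15.2 and 15.4 intensity units in LCM20, 20.5, 27.3, 32.8, 11.9 and 7.81 in LCM800, and 491, 538, 313 and 508 in sieved arrays. All 9 microdissected arrays were under the pseudocount, and all sieved arrays were above it. Mean signals were 13.1 ± 3.49 in LCM20 (SD, n = 4), 20.1 ± 10.4 in LCM800 (SD, n = 5) and 462 ± 102 in sieved arrays (SD, n = 4). With no filter its difference from sieved was −2.73 in LCM20 and −2.61 in LCM800 (limma adjusted p = 1.50e-07 and 1.06e-07).

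The annotation of probe set 1367754_s_at was not settled. The platform table names it Asl, but the RefSeq gene table lists its target transcript under Hnrnpab, which encodes an RNA-binding protein, whereas that of 1368916_at is listed under Asl. The array's own Hnrnpab probe set, 1370309_a_at, read 1692, 2216, 2303 and 2584 intensity units in LCM20, 858, 983, 1169, 2060 and 1394 in LCM800, and 1166, 1264, 1482 and 1278 in sieved arrays. It rose in LCM20 by 0.72 (limma adjusted p = 0.0291) and differed by −0.06 in LCM800 (limma adjusted p = 0.838), which is unlike either probe set named Asl. Over the 13 arrays its log2 values correlated with those of 1367754_s_at at −0.61, as a description of arrays that share group differences. The Asl gene lies at chr12:32295779-32313257.

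**Figure D3:**
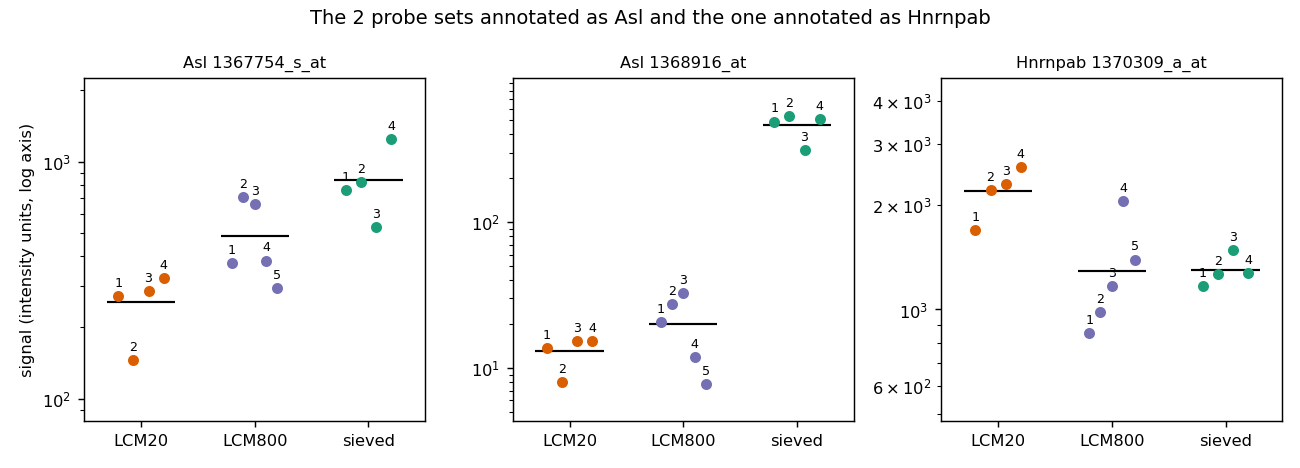
Signal (intensity units, log axis) of the probe sets 1367754_s_at and 1368916_at, both named Asl, and of the Hnrnpab probe set 1370309_a_at on each array in LCM20, LCM800 and sieved. The group means are 257, 484 and 839 for the first, 13.1, 20.1 and 462 for the second, and 2199, 1293 and 1298 for Hnrnpab, each in the order LCM20, LCM800, sieved.

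Gatm, the creatine synthesis enzyme, fell about as much in both comparisons. Its probe set 1367627_at read 1005, 243, 461 and 617 intensity units in LCM20, 487, 270, 360, 667 and 905 in LCM800, and 6938, 6258, 3829 and 6424 in sieved arrays. Microdissected and sieved arrays did not overlap, and sieved replicate 3 was again lowest. Mean signals were 582 ± 321 in LCM20 (SD, n = 4), 538 ± 254 in LCM800 (SD, n = 5) and 5862 ± 1386 in sieved arrays (SD, n = 4), so sieved was 10.1 times LCM20 and 10.9 times LCM800. Gatm fell by 3.30 in LCM20 (SE 0.37; limma adjusted p = 8.15e-06) and fell by 3.36 in LCM800 (SE 0.36; limma adjusted p = 3.09e-06). The gene lies at chr3:130112508-130137664.

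In the sieved and LCM20 groups, but not in LCM800, single arrays stood out alike across most members. Sieved replicate 3 was the lowest sieved array for all 6 probe sets, Pck1 included, and LCM20 replicate 2 was the lowest LCM20 array for 5 of 6, with Pck1 as the exception. Their tubule marker sums were also the lowest of their groups, at 9180 in LCM20 replicate 2 and 59169 in sieved replicate 3. In LCM800, replicate 5 was lowest for 3 probe sets, replicate 2 for 2 and replicate 4 for 1. The lowest LCM800 tubule sum was 12854 in replicate 4, which was the lowest LCM800 array only for Pck1 and the highest for Ass1. Log2 values of Fbp1, Ass1 and Gatm correlated with each other at 0.95 to 0.96 over 13 arrays, and those of Pck1 with these 3 at −0.62 to −0.47. After each group mean was taken off, the first 3 correlated at 0.51 to 0.71, and Pck1 correlated at 0.64 with Fbp1, 0.36 with Ass1 and 0.17 with Gatm. These values describe arrays that share group, scaling and tissue content.

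**Figure D4:**
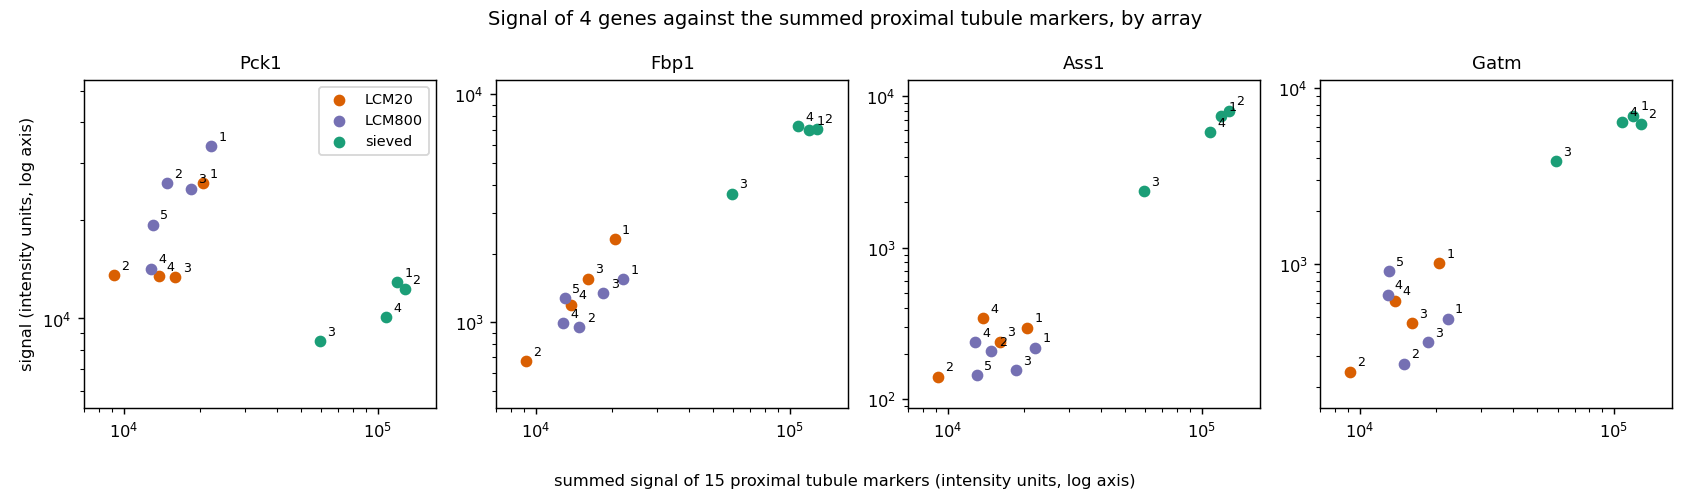
Signal of Pck1, Fbp1, Ass1 and Gatm (log axis) against the summed signal of 15 proximal tubule markers (log axis), both in intensity units, with 1 numbered point per array. For Fbp1, Ass1 and Gatm the sieved arrays lie at upper right and replicate 3, at a sum of 59169, is the lowest of them, while for Pck1 the sieved arrays lie under all microdissected arrays.

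Between LCM20 and LCM800 no member passed (limma, 0 of 5; 0.153% of tested probe sets passed), and 1 of 5 had an unadjusted p under 0.05. That one was Asl 1367754_s_at at −0.74 (limma adjusted p = 0.203; 95% interval −1.34 to −0.14). The 95% interval was −1.12 to 0.09 for Pck1, −0.54 to 0.78 for Fbp1, −0.38 to 0.94 for Ass1 and −0.69 to 0.82 for Gatm. Without LCM800 replicates 4 and 5, Pck1 at −0.82 and Asl at −1.0 passed (limma adjusted p = 0.0458 and 0.0249). The ranges of LCM20 and LCM800 overlapped for all 6 probe sets, and 3.84% of tested probe sets had ranges that did not overlap.

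The other gluconeogenesis steps that passed were lower. Of 6 tested genes of that list, 4 fell and none rose in LCM20, and 3 fell and 1, Pck1, rose in LCM800, beside 18.5% of 8081 genes lower and 27% higher in LCM20 and 19.8% lower and 32.3% higher in LCM800. The list medians were −1.15 in LCM20 and −0.77 in LCM800, beside 0.18 and 0.22 over all genes. Pc, the pyruvate carboxylase that feeds oxaloacetate to Pck1, fell by 1.35 in LCM20 and fell by 1.58 in LCM800 (limma adjusted p = 0.00159 and 0.000256). Slc37a4, the transporter that carries glucose 6-phosphate to the last step, fell by 1.23 in LCM20 and fell by 1.12 in LCM800. Pck2, the mitochondrial counterpart of Pck1, differed by −0.53 in LCM20 and −0.42 in LCM800 and did not pass (limma adjusted p = 0.528 and 0.584). The LCM800 difference changed sign under 5 alternatives and passed under 1 more, and the mean signal was 388 in LCM800 and 329 in sieved arrays. Its dimmer, untested probe set averaged 46.1 in LCM20, 27.7 in LCM800 and 521 intensity units in sieved arrays. G6pc3, a widely expressed glucose-6-phosphatase, fell by 1.07 in LCM20 and differed by 0.04 in LCM800. The G6pc3 call in LCM20 ended without LCM20 replicate 2 or without sieved replicate 2.

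Genes that supply carbon to the pathway were lower where they passed. Of 15 tested, 9 fell in LCM20 and 11 in LCM800, none rose, and the medians were −1.39 in LCM20 and −1.02 in LCM800. Among all tested genes, 18.5% fell in LCM20 and 19.8% in LCM800. Slc25a10, the mitochondrial dicarboxylate carrier, fell by 3.42 in LCM20 and fell by 3.11 in LCM800 (limma adjusted p = 5.87e-06 and 5.86e-06). Gk, the glycerol kinase, fell by 3.32 in LCM20 and fell by 3.01 in LCM800. Slc13a2, which takes up citrate and succinate from the tubule fluid, fell by 3.05 in LCM20 and fell by 2.78 in LCM800. Ldha, a lactate dehydrogenase subunit of most tissues, fell by 1.26 in LCM800, while its difference of −0.57 in LCM20 did not pass (limma adjusted p = 0.150).

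**Figure D5:**
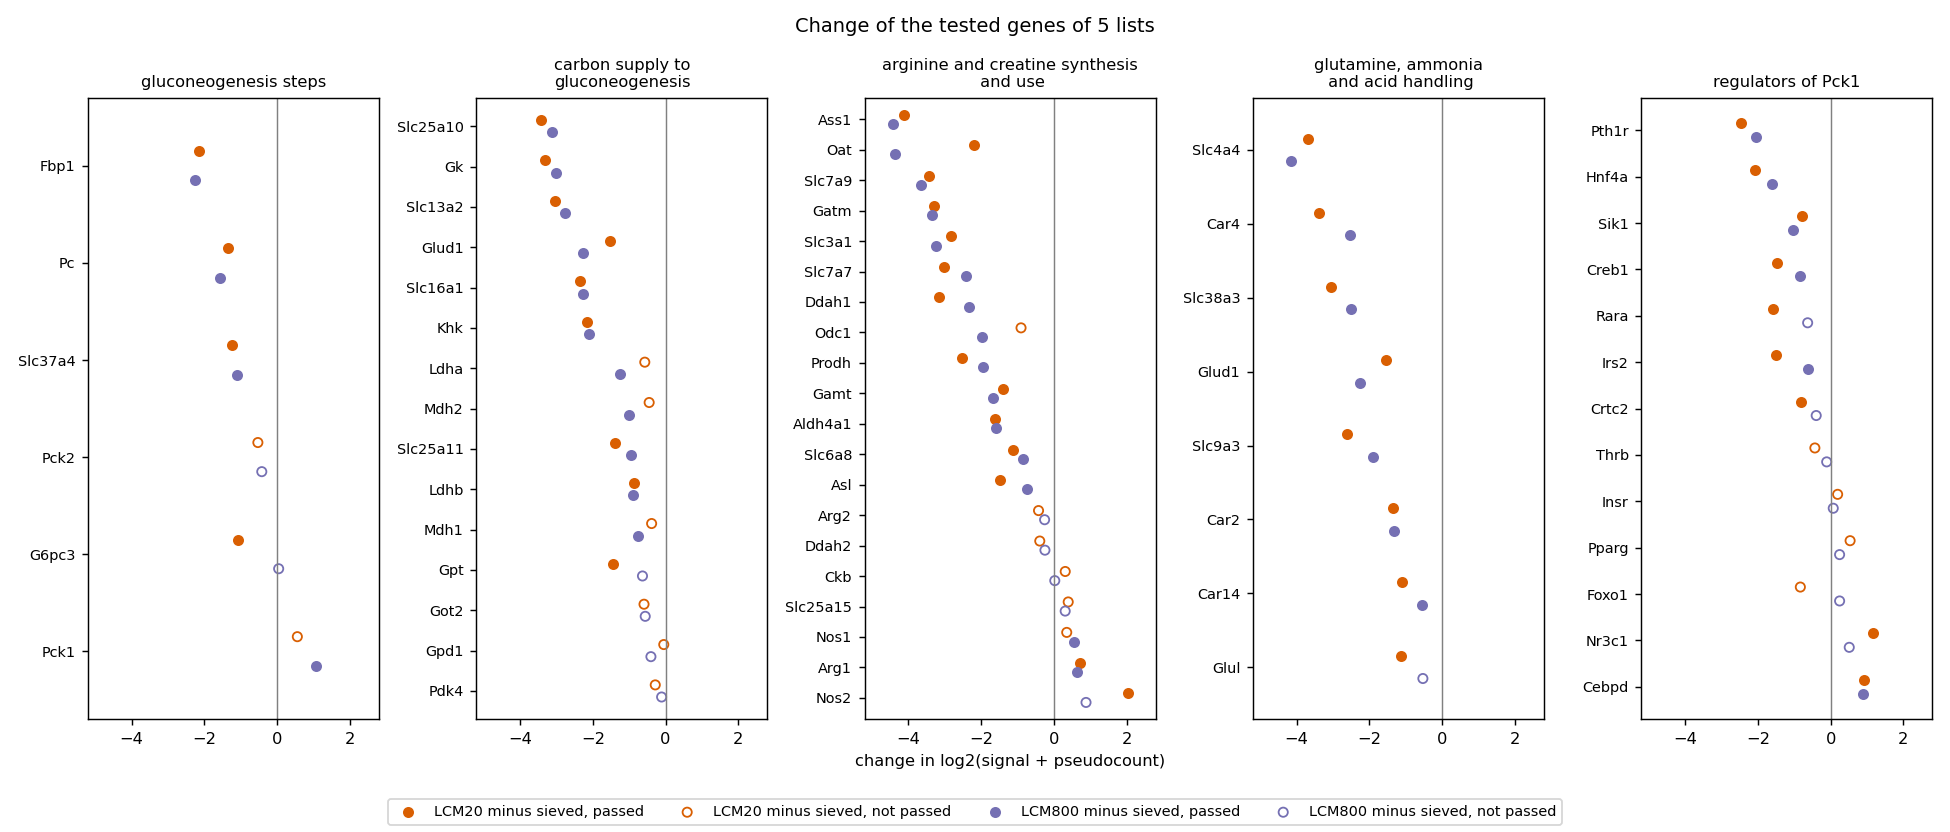
Change in log2(signal + pseudocount) of each tested gene of 5 lists for LCM20 minus sieved and LCM800 minus sieved, with filled points for genes that passed and open points for those that did not. Pck1 lies at the right of the gluconeogenesis steps, and Ass1, Oat, Slc4a4 and Slc7a9 lie among the genes furthest to the left, between −4.41 and −3.64 in LCM800.

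Of 20 tested genes of arginine and creatine synthesis and use, 12 fell and 2 rose in LCM20, and 13 fell and 2 rose in LCM800, with medians of −1.43 in LCM20 and −1.63 in LCM800. Without Ass1, Asl and Gatm themselves, 9 of 17 fell and 2 rose in LCM20, and 10 of 17 fell and 2 rose in LCM800. Among all 8081 tested genes, 18.5% fell and 27% rose in LCM20, and 19.8% fell and 32.3% rose in LCM800. Oat, the ornithine aminotransferase, fell by 2.19 in LCM20 and fell by 4.37 in LCM800 (limma adjusted p = 0.0226 and 9.87e-05), and the LCM20 call ended under 6 alternatives. Slc7a9, the light subunit of the apical carrier for cystine and basic amino acids, fell by 3.42 in LCM20 and fell by 3.64 in LCM800. Slc3a1, the heavy subunit of that carrier, fell by 2.83 in LCM20 and fell by 3.24 in LCM800. Gamt, which completes creatine synthesis after Gatm, fell by 1.39 in LCM20 and fell by 1.68 in LCM800.

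Among the genes of this list that rose, Arg1, the cytosolic arginase, rose by 0.73 in LCM20 and by 0.64 in LCM800 (limma adjusted p = 0.0213 and 0.0273), and these calls ended under 3 and 7 alternatives. Nos2, the inducible nitric oxide synthase, rose by 2.04 in LCM20 (limma adjusted p = 0.00147), a call that ended with array weights, and its difference of 0.88 in LCM800 did not pass. Nos1, the neuronal form, rose by 0.55 in LCM800 (limma adjusted p = 0.0480), a call that ended under 14 alternatives, and its difference of 0.35 in LCM20 did not pass. Arg2, the mitochondrial arginase, and Ckb, the brain-type creatine kinase, passed in neither comparison.

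Glutamine, ammonia and acid handling is the tubule work that runs beside glucose formation. All 8 tested genes fell in LCM20 and 7 of 8 in LCM800, with medians of −2.08 in LCM20 and −2.09 in LCM800. Among all tested genes, 18.5% fell in LCM20 and 19.8% in LCM800. Slc4a4, the basolateral sodium bicarbonate cotransporter, fell by 3.68 in LCM20 and fell by 4.17 in LCM800 (limma adjusted p = 9.07e-07 and 1.37e-07). Car4, the membrane carbonic anhydrase, fell by 3.40 in LCM20 and fell by 2.54 in LCM800. Glul, the glutamine synthetase, differed by −0.53 in LCM800 with its brightest probe set, which did not pass (limma adjusted p = 0.248), while of its other 2 probe sets 1 fell by 2.49 and 1 fell by 4.04. In LCM20 the brightest Glul probe set fell by 1.14, a call that ended under 7 alternatives.

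Known regulators of Pck1 transcription that passed fell more often than they rose. Of 13 tested, 7 fell and 2 rose in LCM20, and 5 fell and 1 rose in LCM800, with medians of −0.80 in LCM20 and −0.40 in LCM800. Among all 8081 tested genes, 18.5% fell and 27% rose in LCM20, and 19.8% fell and 32.3% rose in LCM800. Hnf4a, a nuclear receptor of the proximal tubule, fell by 2.08 in LCM20 and fell by 1.62 in LCM800 (limma adjusted p = 0.000302 and 0.00121). Cebpd, a stress-responsive transcription factor, rose by 0.91 in LCM20 and by 0.90 in LCM800 (limma adjusted p = 0.00740 and 0.00470). Nr3c1, the glucocorticoid receptor, rose by 1.15 in LCM20 (limma adjusted p = 0.0126), and its difference of 0.51 in LCM800 did not pass. The dimmer, untested Nr3c1 probe set averaged 8.37 in LCM20, 12.1 in LCM800 and 34.4 intensity units in sieved arrays. Creb1, which binds cAMP response elements, fell by 1.47 in LCM20 and fell by 0.84 in LCM800, where the call ended under 3 alternatives, among them without LCM800 replicate 3. Its mean signal was 64.8 in LCM20, at the level of the pseudocount, 129 in LCM800 and 284 in sieved arrays. The dimmer, untested Creb1 probe sets averaged 40.0 and 57.5 in LCM20, 91.0 and 53.6 in LCM800, and 41.3 and 32.8 intensity units in sieved arrays. Pth1r, the parathyroid hormone receptor, fell by 2.46 in LCM20 and fell by 2.05 in LCM800 with its brightest probe set, while its other probe set rose by 0.72 in LCM20 and by 0.83 in LCM800.

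Pck1 is also expressed by fat cells, so adipocyte markers are given beside it. The summed signal of 7 adipocyte markers ran from 1060 to 1809.5 in LCM20, from 1093 to 1693 in LCM800 and from 2103 to 2582 in sieved arrays. Lpl and Cd36 carried the lower sum, since without them the other 5 markers summed to 391 to 648 in LCM20, 340 to 617 in LCM800 and 303 to 466 in sieved arrays. Of the 7 markers, 2 were tested, and neither passed in LCM20, while 1, the lipase gene Lpl, fell in LCM800. The other 5, among them Fabp4 and Lep, were under the filter.

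The genes whose log2 values over the 13 arrays were most like those of a member differed from member to member. For Pck1 they were Phf20, Hapln2 and Mmaa, at r = 0.95 each. For Fbp1 they were Cyp4f1, Aspa and Napsa, at 0.99 each, and for Ass1 a dimmer Glul probe set, Aqp1 and Slc7a9, at 0.99 each. For Gatm they were Cyp2c23 at 0.996 and Fmo1 and Gcdh at 0.98. For Asl 1367754_s_at they were Cluh at 0.94 and Eif2b1 and Sema4b at 0.93. These lists describe arrays that share group differences, and whether they set Pck1 apart beyond its direction of change was not tested. With group means taken off, the nearest genes were Khsrp for Pck1 (0.94), Cyp4f1 for Fbp1 (0.97), Fcgrt for Ass1 (0.93), Esrra for Asl (0.94) and Cyp2c23 for Gatm (0.97).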

How the data were processed

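The authors deposited linear signals in intensity units for 13 arrays, which per the submitters' processing notes came from MAS5, and no version or further step is given in the sources used here. Each array's mean after 2% of the values at each end were left out was close to equal across arrays, so arrays were not normalized again. The tested values were log2(signal + 65.29), the pseudocount being the 20th percentile of all signals, which understates changes of dim genes. The 57 control probe sets and the lowest 30% by mean log2 were left out, which left 11106. All 3 groups entered 1 limma model (version 3.58.1, R 4.3.3; lmFit and a trended eBayes) with two-sided tests and Benjamini-Hochberg adjustment at 0.05 over all tested probe sets. The script was tested on simulated data.

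Symbols came from the platform table, updated through the RefSeq gene table, and a gene other than a member was represented by its brightest probe set with 1 symbol. Promoter sequences are RefSeq's on GRCr8. No probe positions were used. Replicate numbers do not name an animal, and p-values measure the spread between these samples. The number of arrays limits the precision. The members, the lists (5 pathways and 7 cell types) and the tests were chosen with earlier results of these data known. Named genes were all members, the 3 most similar genes by each of 2 correlations, and list genes with at least the largest passing changes per list. The sample description speaks of embryos and the extraction text of anti-Thy1.1 rats, which do not match the other fields. Marker sums without Synpo or without Lpl and Cd36, and list counts without the members, were added after their values were seen. Alternatives were other normalizations, pseudocounts, filters and variance models, array weights, a replicate block, only the 2 groups compared, and arrays left out.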

Additional observations from a re-analysis of the deposited data

Results flagged for a closer look

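Of 18 sets of values (6 probe sets in 3 groups), 2 held an array far from the others by Dixon's criterion, which chance gives in about 1 of 20 sets. Pck1 in LCM20 replicate 1 read 26060 intensity units, against 13370.5 to 13582 in the other LCM20 arrays. Fbp1 in sieved replicate 3 read 3664, against 6955 to 7242 in the other sieved arrays.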

How the results depend on the processing

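Under 25 alternatives, Fbp1, Ass1 and Gatm against sieved, and Asl 1367754_s_at in LCM20 against sieved, kept their direction and stayed past the threshold. The number of members changed ran from 3 to 5 in LCM20 and from 4 to 5 in LCM800 against sieved, including the count without the Asl probe set whose annotation is unsettled, which was added after the data were seen. Between LCM20 and LCM800 it was 2 without LCM800 replicates 4 and 5. Over all probe sets, 17 changed between LCM20 and LCM800. That count was 10 with no pseudocount, 10 with no filter, 859 with array weights, 0 with the replicate block, 0 with only the 2 groups compared, 2594 without LCM800 replicates 4 and 5, and 0 to 504 with 1 array left out. With the lowest 60% left out, 3260 probe sets changed in LCM20 and 3503 in LCM800 against sieved, beside 5035 and 5764, with fewer probe sets tested. Differences between LCM20 and LCM800 near 0 turned sign: Fbp1 ran from −0.14 to 0.42 and Gatm from −0.23 to 0.37 with 1 array left out, with Fbp1 at −0.14 without LCM20 replicate 1, and Gatm at −0.12 without LCM800 replicate 2, −0.04 without LCM800 replicate 3, −0.23 without LCM20 replicate 1, −0.0096 without LCM20 replicate 4 and −0.52 without LCM800 replicates 1, 2 and 3. The cause was not tested. Same-numbered arrays of different groups correlated at −0.24 to 0.23 in their deviations from group means, over 0.1 in 3 of 12 pairs, so the numbers were not taken to pair the samples. With the replicate block, 4 members changed in LCM20 and 4 in LCM800, where Asl 1367754_s_at was at −0.59 (limma adjusted p = 0.128), and no other member call changed. LCM800 replicate 5 has no same-numbered array in the other groups, so the block takes it out of the comparison. The Asl difference was likewise −0.59 without that array. Of the list counts added after the data were seen, that of Pck1 regulators was 2 of 2 tested in LCM20 and 1 of 2 in LCM800 with the lowest 60% left out. The Asl probe set 1368916_at lay under the pseudocount on all microdissected arrays, which limits its fold.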
